A study of Mus musculus with 24 samples.

Results

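The transcripts followed here are 6 reported targets of tristetraprolin (TTP) outside the cytokine family in hematopoietic stem and progenitor cells of TTPΔARE mice, namely *Myc*, *E2f1*, *Lats2*, *Vegfa*, *Plau* and *Ier3*. They were chosen by symbol, as 6 of the 55376 genes in each count table, and all 6 were found. That TTP acts on them was reported in other cells, and neither TTP binding nor mRNA decay was measured here. The question was whether these transcripts fall where *Zfp36*, the gene that encodes TTP, is raised.

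Bulk mRNA-seq was performed on 24 libraries of sorted bone marrow cells from untreated male mice. The HSC libraries were Y-WT (n = 4), Y-TTPΔARE (n = 4), M-WT (n = 5) and M-TTPΔARE (n = 3), where Y is young and M middle-aged, and HSCs were sorted as LSK CD34- Flk2- CD150+ cells. The MPP3 libraries, from a multipotent progenitor with a myeloid bias, were all young, Y-WT (n = 4) and Y-TTPΔARE (n = 4). TTPΔARE mice are homozygous for a germline deletion of an AU-rich element in the 3′ UTR of *Zfp36*, and the WT mice are their littermates. The allele is therefore present in every cell of the animal, and the sorted cells come from marrow in which all other cells carry it too. The labels do not say whether a library holds the cells of 1 mouse or of several, so the tests measure the spread between libraries.

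TTP is a tandem zinc-finger protein that binds AU-rich elements (AREs) in the 3′ UTR of short-lived mRNAs and recruits the CCR4-NOT complex, which removes the poly(A) tail and starts decay. Its preferred site is the heptamer UAUUUAU, most often flanked by a further U on either side, which makes the nonamer, and the minimal ARE core is the pentamer AUUUA. Because TTP also binds its own mRNA, removal of the ARE from *Zfp36* stabilizes that mRNA. In blood stem cells the targets followed here take part in growth and cell-cycle entry (*Myc*, *E2f1*), in growth restraint (*Lats2*), in signals to vessels and matrix (*Vegfa*, *Plau*) and in the response to stress (*Ier3*).

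The sites through which TTP could act on these transcripts are shown first, since they differ between the members. Each line gives 30 bases of the reference 3′ UTR (GENCODE M21, GRCm38, the build called mm10 by the authors), written 5′ to 3′ on the strand of the transcript with T for U, around the first copy of the longest motif present. Capitals mark the motif, which is a nonamer in *Zfp36*, *E2f1*, *Lats2* and *Vegfa*, a heptamer in *Ier3* and *Plau*, and a pentamer in *Myc*.
Zfp36: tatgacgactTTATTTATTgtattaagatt
Myc: taacagatttgtATTTAattgtttttttaa
E2f1: aatggagcgtTTATTTATTtatcgaggcct
Lats2: aatttaactaTTATTTATTgatatatcatt
Vegfa: ttgttatcatTTATTTATTggtgctactgt
Plau: tctgctattttTATTTATatctatttttat
Ier3: tgtctaattaaTATTTATgtatttatgtat
These sites lie at chr7:28376950-28376979 (*Zfp36*, minus strand), chr15:61990135-61990164 (*Myc*, plus), chr2:154560032-154560061 (*E2f1*, minus), chr14:57689713-57689742 (*Lats2*, minus), chr17:46017165-46017194 (*Vegfa*, minus), chr14:20843317-20843346 (*Plau*, plus) and chr17:35822481-35822510 (*Ier3*, plus). Where the deletion of the TTPΔARE allele starts and ends is not given in the sources used here, so whether the *Zfp36* site shown is inside it is not stated.

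The motifs were counted on the transcript strand of the longest annotated 3′ UTR of each gene, and a nonamer also counts as a heptamer and a heptamer also as a pentamer. *Ier3*, with 613 bases, held 5 pentamers, of which 4 were heptamers. *E2f1*, with 1281 bases, held 3 pentamers that were all heptamers, and 2 of them were nonamers. *Vegfa* held the most pentamers, 9 in 1865 bases, with 3 heptamers and 1 nonamer. *Lats2* held 6 pentamers in 1626 bases, with 1 heptamer and 1 nonamer. *Plau* held 2 pentamers and 1 heptamer in 935 bases. *Myc* held 2 pentamers and no longer motif in 466 bases. *Zfp36* itself held 3 heptamers and 1 nonamer in 774 bases.
The pentamer is common in 3′ UTRs and tells little on its own, as 65.2% of 21005 mouse 3′ UTRs held it, while 27.6% held the heptamer and 7.66% the nonamer. Among 3′ UTRs within 20% of the same length, the heptamer was present in 16.0% for *Ier3*, 30.8% for *E2f1*, 38.6% for *Vegfa*, 35.8% for *Lats2* and 22.1% for *Plau*. The pentamer was present in 47.8% of those near the length of *Myc*. In the shortest annotated 3′ UTR of *Vegfa* (27 bases), *Myc* (159 bases) and *Lats2* (171 bases) no motif remained, and counts per gene do not tell which 3′ end was used in these cells.

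**Figure D1:**
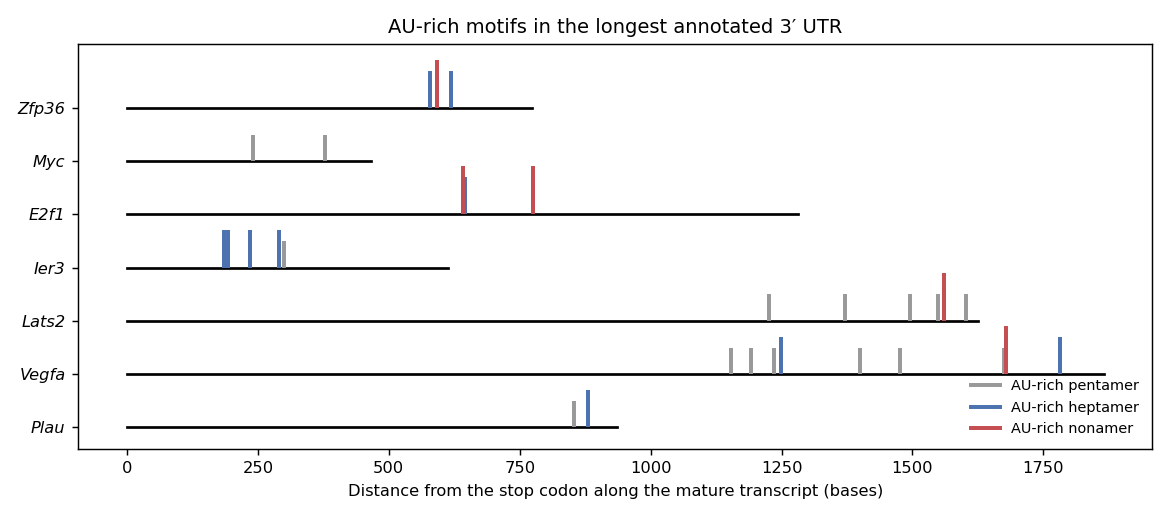
Position of AU-rich motifs in the longest annotated 3′ UTR of *Zfp36* and the 6 targets, in bases from the stop codon. Each bar stands at the centre of a motif and is coloured by the longest motif centred there. The motifs of *Lats2*, *Vegfa* and *Plau* lie toward the 3′ end, while those of *Ier3* lie in the first 302 bases of 613.

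Libraries held between 24261371 and 39934554 counts in all. Levels are given in CPM, counts scaled to the same library total with TMM factors over all 24 libraries. For receptor genes alone the CPM use the library total without TMM factors. Olfactory and vomeronasal receptor genes have no known role in these cells, and their summed level ranged from 18.8 to 1091 CPM. It was highest in 3 Y-WT HSC libraries, at 670 to 1091 CPM in replicates 2, 3 and 4 against 63.6 CPM in replicate 1. It lay between 77.8 and 423 CPM in Y-TTPΔARE HSCs. Those 3 Y-WT libraries thus lay above every Y-TTPΔARE HSC library, so in young HSCs this level went largely with genotype. Its part in the young HSC values of *Zfp36* and the targets was not tested. For the low transcript *Plau* these levels are given beside the result. The sorted HSCs held the HSC markers, whose summed level was 4210 to 6752 CPM over 13 genes in HSC libraries and 2414 to 3682 CPM in MPP3 libraries. In Y-WT MPP3 against Y-WT HSCs 10 of the 13 were called lower and none higher, where 13.1% of genes over the level limit were called lower. The 13 include *Slamf1*, *Kit* and *Ly6a*, which encode the sort markers CD150, cKit and Sca1, so their presence follows from the sort. The libraries of middle-aged HSCs, young HSCs and MPP3 cells carry separate runs of numbers in their titles, so age or cell type and the set of libraries cannot be told apart. Genotypes were compared within each set.

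The targeted gene was checked first. *Zfp36* lay at 69.2, 32.4, 34.6 and 53.5 CPM in Y-WT HSCs and at 105, 92.3, 85.3 and 96.1 CPM in Y-TTPΔARE HSCs. It lay at 45.7, 49.5, 41.6, 53.4 and 60.4 CPM in M-WT HSCs and at 94.9, 104 and 106 CPM in M-TTPΔARE HSCs. In MPP3 cells it lay at 38.4, 20.5, 28.9 and 29.96 CPM in Y-WT and at 116, 97.3, 81.6 and 124 CPM in Y-TTPΔARE. Every TTPΔARE library lay above every WT library of its set, so no label went against the allele.
*Zfp36* rose 1.96-fold in middle-aged HSCs (log2 fold change 0.97, SE 0.11, adjusted p = 0.0020) and 3.47-fold in MPP3 cells (log2 fold change 1.80, SE 0.18, adjusted p = 6.5e-04). In young HSCs the log2 fold change was 0.96 (SE 0.21), and edgeR's adjusted p of 0.238 over all genes did not pass. It passed with DESeq2 (adjusted p = 7.4e-04), in edgeR's likelihood ratio test (0.0130), without a filter on low counts (0.0348) and without Y-WT replicate 1 (0.0419). The exact 2-sided permutation test of the mean CPM gave p = 0.0286 in young HSCs, p = 0.0179 in middle-aged HSCs and p = 0.0286 in MPP3 cells, each the smallest p that its design allows. A gene on the opposite strand, Gm44710, overlaps exons of *Zfp36* and had 113 to 343 counts in a library. Strand settings of the counting are not stated, so reads of both genes may not be separated. In these bulk samples fewer cells with a transcript and less of it per cell cannot be told apart.

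Of the 5 targets that could be called, none fell in any of the 3 genotype comparisons at the limits used. A call needed an average log2 CPM above 1.5, a fold above 1.2 in either direction, and an adjusted p below 0.05. *Vegfa* rose in middle-aged HSCs. *Plau* was under the level limit in young HSCs and too low to be tested in the other comparisons, so it could not be called. In each comparison the other 5 targets were over that limit. Of these 15 changes 8 were below zero and 7 above.
In young HSCs 0 of the 5 were called, where 0.0435% of 13786 genes over the limit were called (6 genes, with 1414 at an unadjusted p under 0.05 in edgeR, and 304 called by DESeq2). In middle-aged HSCs 1 of the 5 was called, where 2.22% of 13413 genes were called (298 genes, with 1.12% called lower and 1.1% higher, that is 150 of 298 lower, and 124 of 345 with upper-quartile scaling factors). In MPP3 cells 0 of the 5 were called, where 2.54% of 12856 genes were called (326 genes, 26 of them lower, with 1948 at an unadjusted p under 0.05). The median change of the 5 targets was 0.08, -0.07 and -0.01 on the log2 scale in young HSCs, middle-aged HSCs and MPP3 cells, and that of all genes over the limit was 0.03, -0.03 and -0.00. With DESeq2 1 target was called higher in young HSCs (*Myc*), 2 in middle-aged HSCs (*E2f1* lower, *Vegfa* higher) and 1 higher in MPP3 cells (*Myc*). Without a filter on low counts *Myc* was called in young HSCs too, and *E2f1* and *Vegfa* in middle-aged HSCs. The paper, which names edgeR and the same limits but not the edgeR test, reported more changed transcripts in each genotype comparison. In young HSCs most of those were lower, and *Zfp36* was among those raised. Why the counts differ was not tested.

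**Figure D2:**
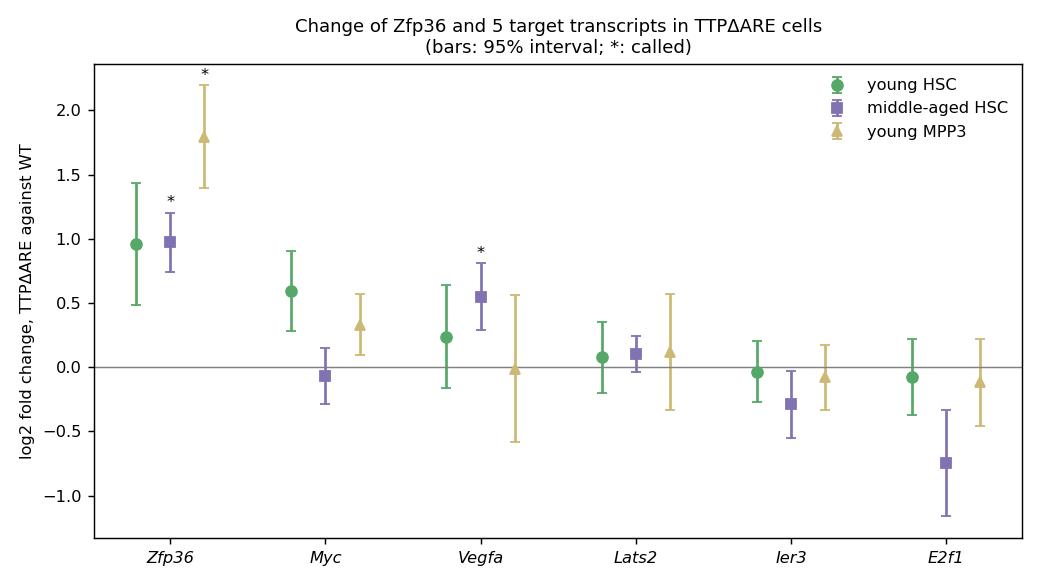
Log2 fold change of TTPΔARE against WT for *Zfp36* and the 5 targets over the level limit, with bars for the 95% interval of edgeR's fit and an asterisk for a called change. *Zfp36* lies above zero in all 3 comparisons, while the targets lie on both sides of it, from -0.75 for *E2f1* in middle-aged HSCs to 0.60 for *Myc* in young HSCs.

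*Myc* encodes a transcription factor that drives ribosome production and cell growth, and its dose is known to set the balance of HSC self-renewal and differentiation. It lay at 250.1, 269, 244 and 189 CPM in Y-WT HSCs and at 399.9, 325, 329.7 and 431 CPM in Y-TTPΔARE HSCs. It lay at 384, 429, 458 and 392 CPM in Y-WT MPP3 and at 565, 463, 495 and 633 CPM in Y-TTPΔARE MPP3. In both young cell types each TTPΔARE library lay above each WT library, which is opposite to the direction asked about.
The difference was 0.60 on the log2 scale in young HSCs (SE 0.14, 95% interval 0.29 to 0.91, edgeR adjusted p = 0.257) and 0.33 in MPP3 cells (SE 0.11, 95% interval 0.09 to 0.57, adjusted p = 0.221). Neither passed over all genes in edgeR's quasi-likelihood test, other than the value in young HSCs when low counts were not filtered (0.67, adjusted p = 0.0329). Such a separation with TTPΔARE higher was seen for 6.67% of genes over the limit in young HSCs and for 5.6% in MPP3 cells. DESeq2 called both, with adjusted p = 7.2e-04 in young HSCs (7.2e-04 to 0.257 over 8 other settings) and adjusted p = 0.0320 in MPP3 cells (0.0320 to 0.630 over 8). With any 1 library left out the difference stayed above zero, between 0.55 and 0.71 in young HSCs and between 0.25 and 0.36 in MPP3 cells, and was not called.
In middle-aged HSCs *Myc* lay at 234, 267, 268, 325 and 274 CPM in M-WT and at 237, 262 and 307 CPM in M-TTPΔARE, and the groups overlapped. The difference there was -0.07 (95% interval -0.29 to 0.15). Whether the effect of TTPΔARE on *Myc* differs between the ages was tested as an interaction in 16 HSC libraries, and its value was -0.71 (SE 0.19, edgeR adjusted p = 0.225), while DESeq2 gave -0.66 with adjusted p = 0.0292 (0.0292 to 0.692 over 7 other settings). Between the cell types the interaction was -0.36 (SE 0.18, adjusted p = 0.5262). Of 13667 genes, 0.0439% passed the test of the age interaction, and of 13467 genes 0.839% passed that of the cell type interaction. None of the 6 targets passed either test in edgeR.

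The partners and the products of *Myc* were read from lists. Of 12 genes listed for the MYC-MAX-MXD network, 11 were over the level limit in young and in middle-aged HSCs, and 0 were called in either. In MPP3 cells 1 of 12 was called, *Mycl*, a paralog of *Myc*, which rose (log2 fold change 5.26, SE 0.41, adjusted p = 1.7e-04) and was called with any 1 library left out. In Y-WT MPP3 against Y-WT HSCs only 11 of the list were over the level limit. *Mycl* may therefore have passed that limit only through the TTPΔARE libraries, where it is high.
Of 18 ribosome biogenesis and growth genes that MYC is known to bind, 0 were called in young HSCs, although 17 lay above zero with a median change of 0.10. Under other scaling factors 16 to 18 of them did, and the median lay between 0.06 and 0.11. Over all genes above the limit in young HSCs the median was 0.03 and the quartiles were -0.08 and 0.12. In middle-aged HSCs 1 of the 18 was called, *Cad*, which makes pyrimidines, and it fell (log2 fold change -0.50, SE 0.09, adjusted p = 0.0238, kept in 6 of 8 fits with 1 library left out, with adjusted p up to 0.0917). In MPP3 cells 0 were called, with 9 on either side of zero. The median of the list there was -0.01, beside a *Myc* fold of 1.26 that did not pass.

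*E2f1* encodes a transcription factor that switches on the genes of the G1/S transition and DNA replication and is held in check by pocket proteins. It lay at 16.6, 18.4, 33.1, 23.1 and 23.6 CPM in M-WT HSCs and at 13.5, 14.4 and 14.4 CPM in M-TTPΔARE HSCs. The M-TTPΔARE libraries lay close together and below every M-WT library, with M-WT replicate 1 nearest and replicate 3 far above the rest. Of all genes over the limit in this comparison, 4.37% were separated in that direction.
The difference was -0.75 on the log2 scale (0.596-fold, SE 0.19, 95% interval -1.16 to -0.33), and edgeR's adjusted p of 0.0793 did not pass. It passed with DESeq2 (adjusted p = 0.0020) and without a filter on low counts (adjusted p = 1.7e-04), and not in the other 6 settings, over which adjusted p reached 0.185. It also passed without M-WT replicate 1 (-0.84, adjusted p = 0.0413), and over all libraries left out it lay between -0.84 and -0.58 with adjusted p of 0.0413 to 0.241.
*E2f1* did not separate the genotypes in the young cells. It lay at 35.7, 39.3, 32.7 and 32.0 CPM in Y-WT HSCs and at 39.7, 26.7, 35.0 and 34.7 CPM in Y-TTPΔARE HSCs, and the difference was -0.08 (95% interval -0.38 to 0.22). In MPP3 cells it lay at 65.8, 95.7, 71.4 and 72.8 CPM in Y-WT and at 75.1, 61.7, 75.8 and 77.5 CPM in Y-TTPΔARE, and the difference was -0.12 (95% interval -0.45 to 0.22). The age interaction was -0.71 (SE 0.25, adjusted p = 0.271), so a difference of the effect between ages was not shown. The cell type interaction was -0.13 (SE 0.20, adjusted p = 0.874).

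Genes that E2F proteins activate at G1/S were read beside *E2f1*. In middle-aged HSCs 20 of 20 lay below zero with a median of -0.40, and 2 were called, *Mcm6* (log2 fold change -0.41, SE 0.09, adjusted p = 0.0498) and *Mcm3* (-0.39, SE 0.08, adjusted p = 0.0499), both subunits of the replicative helicase. All 20 stayed below zero under both other scaling factors and with each of the 8 libraries left out in turn, with a median between -0.46 and -0.33 over the latter. The number called was less stable and lay between 0 and 7. It was 0 without M-WT replicate 4 or 5 and without any M-TTPΔARE library, 6 without M-WT replicate 1, 7 without replicate 2 and 3 without replicate 3. The summed level of the 20 genes was 1587 to 2245 CPM in M-WT HSCs and 1443 to 1571 CPM in M-TTPΔARE HSCs. Over all genes above the limit in this comparison the median was -0.03 and the quartiles were -0.13 and 0.07.
In young HSCs 0 of the 20 were called and 7 lay below zero, with a median of 0.05. In MPP3 cells 0 were called and 16 lay below zero, with a median of -0.21. The values in MPP3 cells ran from -0.59 for *Pola1*, a DNA polymerase subunit, to 0.23 for *Ccne1*, the cyclin of G1/S entry. Of 12 E2F, DP and pocket proteins, 1 was called in the genotype comparisons, the pocket protein *Rbl1*, which fell in middle-aged HSCs (-0.36, SE 0.07, adjusted p = 0.0269, kept in 5 of 8 fits with 1 library left out).

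**Figure D3:**
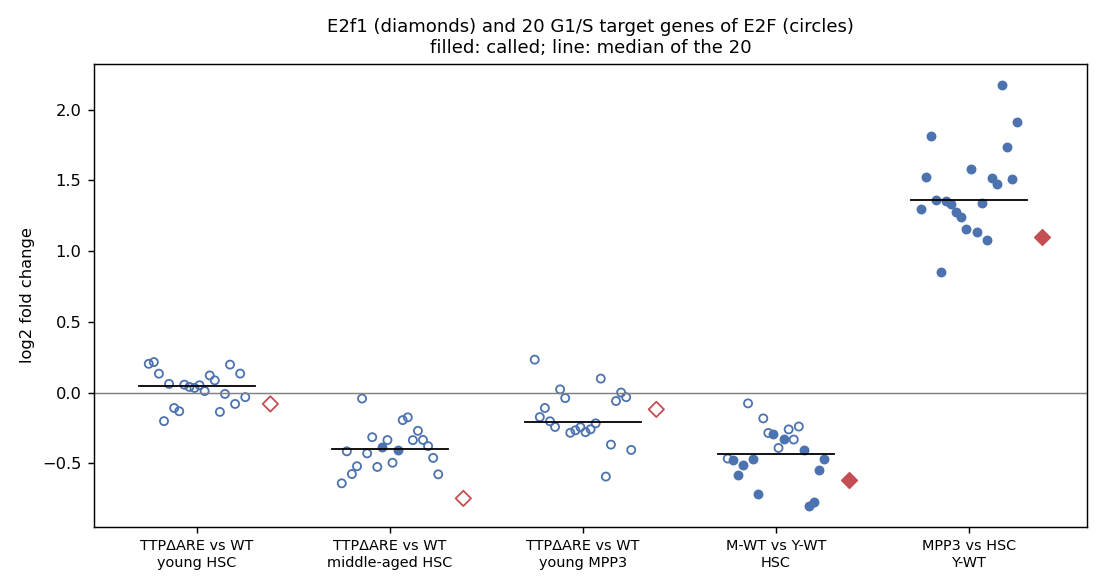
Log2 fold change of *E2f1* (diamonds) and of 20 G1/S target genes of E2F (circles) in 5 comparisons, with filled symbols for called changes and a line at the median of the 20. The 20 genes lie below zero in M-TTPΔARE against M-WT HSCs and in M-WT against Y-WT HSCs, around zero in young HSCs, and above it in WT MPP3 against WT HSCs. Comparisons that name the same WT group share its libraries.

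*E2f1* also differed between WT cells. It was 2.14-fold higher in Y-WT MPP3 than in Y-WT HSCs (log2 fold change 1.10, SE 0.15, adjusted p = 7.4e-04), and all 20 of the G1/S genes were called higher there with a median of 1.36. In M-WT HSCs *E2f1* was 0.652-fold of Y-WT HSCs (log2 fold change -0.62, SE 0.17, adjusted p = 0.0265), although the library ranges overlapped through M-WT replicate 3. That call was lost when M-WT replicate 1 or 2 or Y-WT replicate 2 or 3 was left out (adjusted p up to 0.0801). Of the 20 G1/S genes 12 were called lower with age, with a median of -0.44, and none higher. The number called fell to 5 without M-WT replicate 1 or 2 or Y-WT replicate 2, to 7 without M-WT replicate 5 and to 8 without Y-WT replicate 4. The M-WT libraries are the same that were compared with M-TTPΔARE, so these counts are not independent of that comparison. Between these WT groups 37.7% and 19.7% of genes over the limit were called, so a call here is common.
From the lowest mean to the highest, *E2f1* was ordered as M-TTPΔARE HSC (14.1 ± 0.50 CPM, SD, n = 3), M-WT HSC (23.0 ± 6.40, n = 5), Y-TTPΔARE HSC (34.0 ± 5.36, n = 4), Y-WT HSC (34.9 ± 3.32, n = 4), Y-TTPΔARE MPP3 (72.5 ± 7.28, n = 4) and Y-WT MPP3 (76.4 ± 13.2, n = 4). Neighbours in this order overlapped, other than M-TTPΔARE with M-WT HSC and Y-WT HSC with Y-TTPΔARE MPP3.

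*Lats2* encodes a kinase of the Hippo pathway that phosphorylates YAP and TAZ and keeps them out of the nucleus. In middle-aged HSCs it lay at 26.0, 27.3, 27.4, 28.0 and 27.0 CPM in M-WT and at 29.6, 31.2 and 29.6 CPM in M-TTPΔARE. The groups did not overlap, with TTPΔARE higher, as for 9.43% of all genes over the limit, but the distance was small, 0.10 on the log2 scale (SE 0.06, 95% interval -0.04 to 0.24, adjusted p = 0.448).
In young HSCs it lay at 24.8, 20.04, 18.5 and 25.6 CPM in Y-WT and at 23.2, 27.0, 20.9 and 25.7 CPM in Y-TTPΔARE. In MPP3 cells it lay at 22.1, 14.8, 19.98 and 19.9 CPM in Y-WT and at 20.4, 26.0, 20.7 and 16.9 CPM in Y-TTPΔARE. Both pairs of groups overlapped, and the differences were 0.08 (95% interval -0.20 to 0.35) and 0.12 (95% interval -0.33 to 0.57). *Lats2* was above every Y-WT HSC library in M-WT HSCs (log2 fold change 0.28, SE 0.09, adjusted p = 0.0531), which did not pass, and 16.4% of genes were separated so. It passed without a filter on low counts (adjusted p = 0.0492) and without Y-WT replicate 1 (0.0137) or 4 (0.0273).
Of the other 17 Hippo kinases and effectors, 15, 14 and 10 were over the level limit in young HSCs, middle-aged HSCs and MPP3 cells, and 0 were called in each. The same held for the YAP/TEAD target genes, with 0 called of 6, 5 and 4. Exons of a gene model on the same strand, Gm49361, overlap *Lats2*, and it had 0 counts in every library.

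*Vegfa* encodes the main ligand of vessel growth, which HSCs also use as a survival signal. In middle-aged HSCs it lay at 9.78, 8.03, 8.79, 9.22 and 8.96 CPM in M-WT and at 13.5, 11.8 and 15.3 CPM in M-TTPΔARE. All M-TTPΔARE libraries lay above all M-WT libraries. *Vegfa* rose 1.46-fold (log2 fold change 0.55, SE 0.12, adjusted p = 0.0458), where 9.43% of genes over the limit were separated upward. The margin was narrow. The call held without M-WT replicate 1 (adjusted p = 0.0472) and was lost without any other library (adjusted p of 0.0677 to 0.202), with a difference between 0.42 and 0.64. It was also lost with all 24 libraries in the fit (adjusted p = 0.397) and in the likelihood ratio test of edgeR (0.0697), while DESeq2 kept it (0.0026).
In young HSCs *Vegfa* lay at 13.7, 9.17, 10.2 and 10.6 CPM in Y-WT and at 16.6, 12.9, 13.3 and 10.1 CPM in Y-TTPΔARE. In MPP3 cells it lay at 15.3, 9.45, 8.84 and 9.15 CPM in Y-WT and at 13.4, 12.5, 8.19 and 8.47 CPM in Y-TTPΔARE. The groups overlapped in both, and the differences were 0.24 (95% interval -0.17 to 0.64) and -0.01 (95% interval -0.58 to 0.56). The age interaction was 0.27 (SE 0.23, adjusted p = 0.548), so that the rise in middle-aged HSCs was not shown to differ from the value in young HSCs.
The other VEGF ligands and receptors were read from a list. Of 9 listed, 7 were over the limit in young HSCs, 5 in middle-aged HSCs and 4 in MPP3 cells. In the genotype comparisons only *Nrp1*, a co-receptor, was called, and it rose in MPP3 cells (log2 fold change 2.27, SE 0.30, adjusted p = 0.0032). In young HSCs 5 of the 7 lay below zero and 2 above. Their median was -1.26, or -1.47 to -0.86 with 1 library left out. The summed level of the 9 was 128 to 332 CPM in Y-WT and 101 to 132 CPM in Y-TTPΔARE HSCs, and the groups overlapped. In MPP3 cells all 4 lay above zero, with a median of 0.53. Of the hypoxia-response genes, which share their regulator HIF with *Vegfa*, 0 of 11 were called in each genotype comparison, and their median in middle-aged HSCs was 0.05.

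*Plau* encodes the urokinase-type plasminogen activator, a secreted protease. It was the lowest of the 6 targets, and single counts decide its values. Y-WT HSC libraries held 29, 13, 24 and 25 counts and Y-TTPΔARE HSC libraries 4, 3, 7 and 14, that is 0.760, 0.442, 0.888 and 0.737 CPM against 0.107, 0.0906, 0.202 and 0.430 CPM. Each Y-TTPΔARE library lay below each Y-WT library, with Y-TTPΔARE replicate 4 just under Y-WT replicate 2. Of genes over the limit 1.73% were separated in that direction, but the share among genes as low as *Plau* was not counted. The difference was -1.81 on the log2 scale (SE 0.69, 95% interval -3.35 to -0.27, adjusted p = 0.560), it was under the level limit, and it did not pass.
*Plau* was too low to be tested in the other genotype comparisons. M-WT HSCs held 0, 2, 0, 8 and 0 counts and M-TTPΔARE HSCs 8, 4 and 4. Y-WT MPP3 libraries held 5, 0, 9 and 4 counts and Y-TTPΔARE MPP3 libraries 1, 0, 22 and 4. The groups overlapped, and in the middle-aged HSCs the sum was 10 counts in 5 M-WT libraries and 16 in 3 M-TTPΔARE libraries.
The library with the most *Plau* among MPP3 cells, Y-TTPΔARE replicate 3, also had the highest receptor-gene level of its set (524 CPM), and among M-WT HSCs the library with 8 counts, replicate 4, had the highest as well (215 CPM). In Y-WT HSCs replicate 1 had 29 counts at 63.6 CPM of receptor genes, against 13 to 25 counts in the other Y-WT libraries, at 670 CPM or more. The part of these reads in the *Plau* counts was not tested.
Of 10 plasminogen activation genes, 5 were over the limit, among them the urokinase receptor *Plaur* with changes of 0.16, 0.09 and 0.01. In the genotype comparisons 1 was called, *Anxa2*, a cell-surface annexin that binds plasminogen, which rose in MPP3 cells (log2 fold change 1.04, SE 0.14, adjusted p = 0.0032).

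*Ier3* encodes a stress-induced regulator of survival and is an immediate early gene, with the most heptamers among the 6 targets. It lay at 50.3, 42.3, 35.9 and 43.2 CPM in Y-WT HSCs and at 45.1, 38.6, 45.8 and 43.3 CPM in Y-TTPΔARE HSCs. It lay at 40.3, 33.3, 34.7 and 29.5 CPM in Y-WT MPP3 and at 29.3, 32.8, 29.6 and 42.9 CPM in Y-TTPΔARE MPP3. The groups overlapped in both sets, and the differences of -0.03 (95% interval -0.27 to 0.20) and -0.08 (95% interval -0.33 to 0.18) did not pass.
In middle-aged HSCs it lay at 47.4, 45.8, 62.7, 44.1 and 50.3 CPM in M-WT and at 38.4, 42.3 and 46.2 CPM in M-TTPΔARE. M-TTPΔARE replicates 1 and 2 lay below all M-WT libraries, and replicate 3 lay among them. The difference was -0.29 (0.819-fold, SE 0.12, 95% interval -0.55 to -0.03, edgeR adjusted p = 0.266), which did not pass, and it stayed between -0.39 and -0.20 with any 1 library left out.
Of the other immediate early genes, 4 of 13 were called in MPP3 cells and all rose, among them *Klf2* (log2 fold change 3.92, SE 0.21, adjusted p = 7.2e-05), *Klf4* (2.90, SE 0.53, adjusted p = 0.0201) and *Klf6* (0.77, SE 0.14, adjusted p = 0.0207), all Krüppel-like transcription factors. With 1 library left out the call of *Klf2* was kept in 8 of 8 fits and those of *Klf4* and *Klf6* in 3 each, while that of the fourth gene, the antiproliferative factor *Btg2* (0.80, adjusted p = 0.0411), was kept in 0. The list then held 1 to 3 called genes. Of all genes over the level limit in the MPP3 comparison, 2.33% were called higher and 0.202% lower. In Y-WT MPP3 against Y-WT HSCs only 11 of the list were over that limit. Some of the 13 may therefore have passed it only through the TTPΔARE libraries, where they are high. In young and middle-aged HSCs 0 of 11 and 0 of 12 were called.

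**Figure D4:**
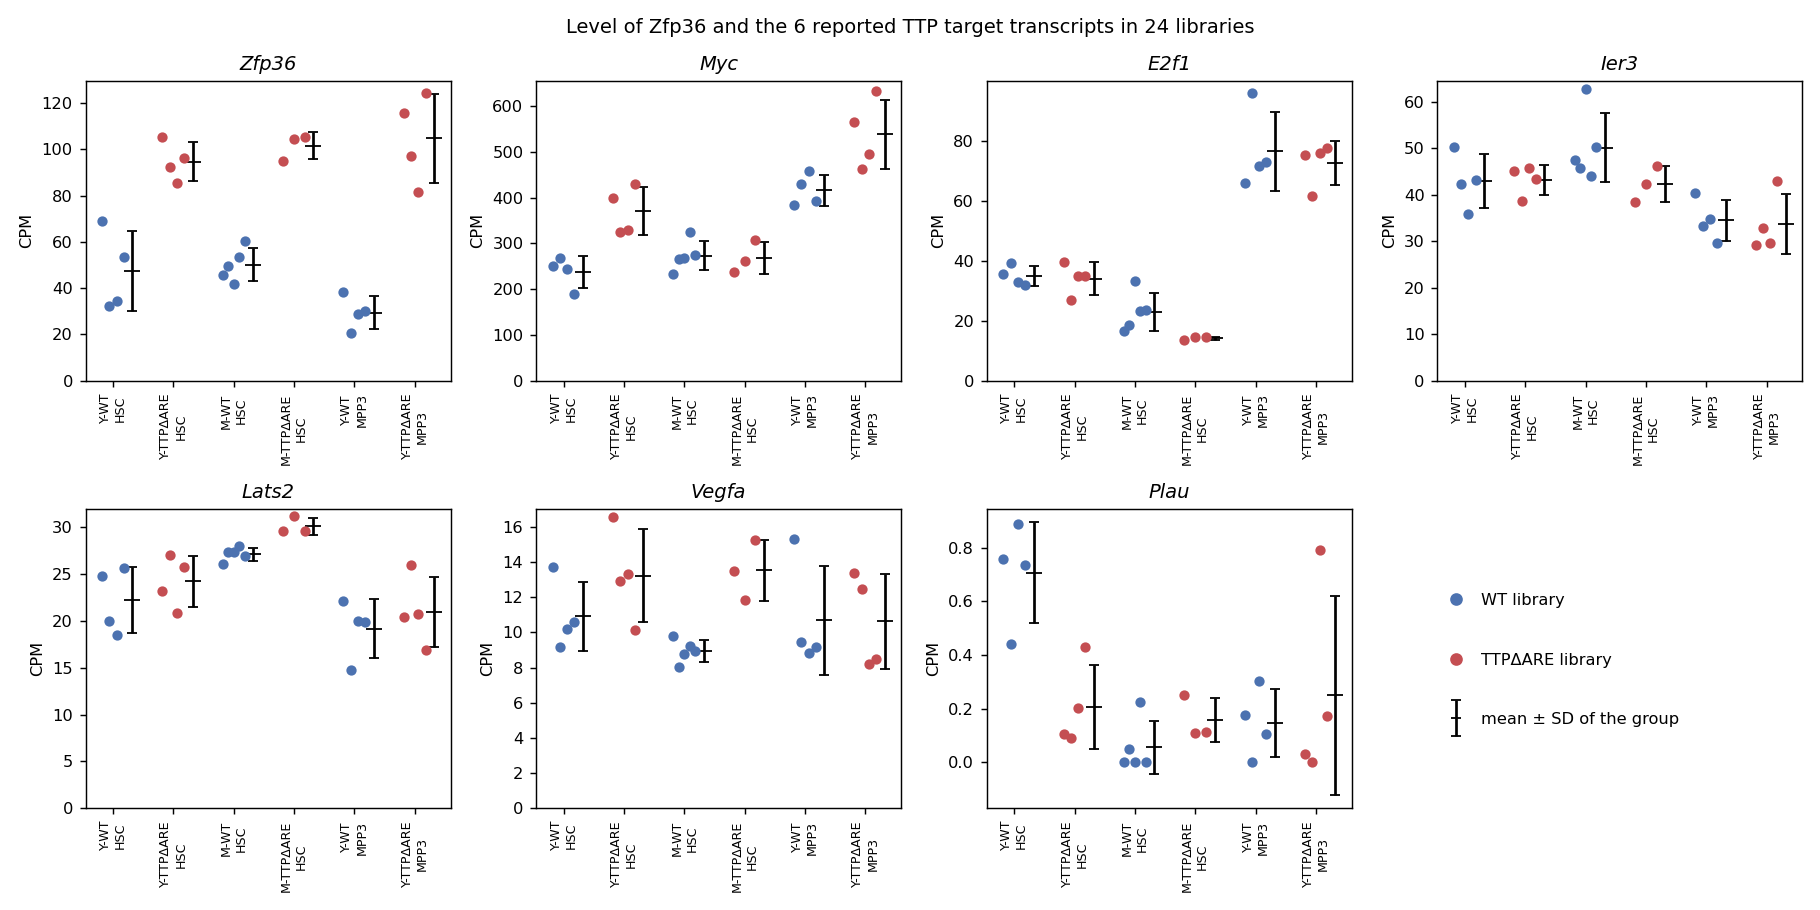
Level of *Zfp36* and the 6 targets in CPM on linear axes, with 1 point per library and the mean ± SD of each group beside it. *Zfp36* separates the genotypes in every set, *Myc* lies higher in TTPΔARE in both young sets, *E2f1* is highest in MPP3 cells and lowest in M-TTPΔARE HSCs, and *Plau* stays under 0.9 CPM.

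Other reported TTP targets were counted for comparison. Of 19 further non-cytokine targets, 17 were over the limit in young HSCs and 0 were called, with a median change of 0.08. In middle-aged HSCs 16 were over the limit and 1 was called, *Pim1*, a survival kinase, which fell (log2 fold change -0.59, SE 0.11, adjusted p = 0.0269, kept in 5 of 8 fits with 1 library left out). In MPP3 cells 16 were over the limit and 1 was called, the cell-cycle inhibitor *Cdkn1a*, which rose (1.06, SE 0.22, adjusted p = 0.0417, kept in 1 of 8 such fits).
Of 21 cytokine and chemokine targets only 4 were over the limit in each comparison, and the chemokine *Ccl3* rose in all 3. Its log2 fold change was 1.66 in young HSCs (SE 0.17, adjusted p = 0.0285), 1.73 in middle-aged HSCs (SE 0.26, adjusted p = 0.0095) and 1.26 in MPP3 cells (SE 0.24, adjusted p = 0.0283). With 1 library left out, these calls were kept in 4, 7 and 2 of 8 fits, and the log2 fold change stayed between 1.12 and 1.89. Of 26 genes of the deadenylation and decapping machinery through which TTP acts, 1 was called, the deadenylase subunit *Cnot6*, which fell in middle-aged HSCs (-0.27, SE 0.05, adjusted p = 0.0297). That call was kept in 5 of 8 fits with 1 library left out and was lost with upper-quartile scaling factors, where the value of -0.24 was under the fold limit.
Markers of other cell types moved with genotype in MPP3 cells. Of 9 monocyte and macrophage markers 4 were called and all rose (3 to 7 with 1 library left out). They were led by *Ccr2* (log2 fold change 4.15), *Cd68* (1.57) and *Adgre1* (2.59). Of all genes over the level limit there, 2.33% were called higher. The summed level of the 9 was 463 to 526 CPM in Y-WT and 877 to 1547 CPM in Y-TTPΔARE. In Y-WT MPP3 against Y-WT HSCs only 7 of them were over the level limit. Some of the 9 may therefore have passed that limit only through the TTPΔARE libraries, where they are high. In middle-aged HSCs 2 of 7 megakaryocyte markers were called lower, *Itga2b* (-1.04) and *Itgb3* (-1.18). Of the 7, 4 lay below zero and 3 above, with a median of -0.12. With 1 library left out 2 were called lower in each fit and 0 to 1 higher. The summed level of the 8 listed was 408 to 434 CPM in M-WT and 230 to 278 CPM in M-TTPΔARE. In MPP3 cells 1 of 10 granulocyte markers rose, the protease *Elane* (2.53), 2 of 4 erythroid markers rose, the globins *Hbb-bt* (1.99) and *Hbb-bs* (3.14), and 1 of 3 T-cell and NK-cell markers rose, the kinase *Lck* (0.76). Only 3 erythroid markers were over the level limit in Y-WT MPP3 against Y-WT HSCs, so the same caution holds for them. In MPP3 cells 2 of 6 endothelial markers fell, the receptors *Tek* (-1.26) and *Tie1* (-0.68), and 2 of 5 megakaryocyte markers fell, *Itga2b* (-0.91) and *Gp5* (-0.85). With 1 library left out, the calls of *Elane*, *Hbb-bt*, *Lck* and *Tek* in MPP3 cells were kept in 8 of 8 fits, that of *Hbb-bs* in 3, that of *Itga2b* in 2 and those of *Tie1* and *Gp5* in 1. Of 13 HSC markers 1 was called in middle-aged HSCs, *Procr*, which rose (0.38, kept in 6 of 8 fits). Of the 13, 5 lay below zero and 8 above, with a median of 0.06.
In young HSCs 1 of 5 erythroid markers over the level limit was called, *Hbb-bt*, which rose (1.60, kept in 3 of 8 fits with 1 library left out), and the summed level of all 9 listed was 45.4 to 56.7 CPM in Y-WT and 129 to 375 CPM in Y-TTPΔARE. The 9 T-cell and NK-cell markers summed to 82.0 to 96.6 CPM in Y-WT and 118 to 212 CPM in Y-TTPΔARE, with 8 of 8 over the level limit above zero, and all 8 endothelial markers lay below zero, but none of either list was called. The part of such cells in the values of *Myc* and *Plau* in young HSCs, of *Myc* in MPP3 cells and of *E2f1* and *Vegfa* in middle-aged HSCs was not tested. In the groups named, no marker of these lists was at 0 in every library, other than 1 megakaryocyte marker in Y-TTPΔARE MPP3.

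Genes were then split by the longest motif of their 3′ UTR. In young HSCs the median log2 fold change was 0.02 for 961 genes with a nonamer, 0.04 for 2635 with a heptamer only, 0.03 for 4750 with a pentamer only and 0.05 for 3467 with none. In middle-aged HSCs it was -0.02, -0.02, -0.04 and -0.03 in the same order. In MPP3 cells it was -0.05, -0.06, -0.02 and 0.08. Only in MPP3 cells did the classes differ by more than 0.1 between their medians, and the quartiles of all 4 classes overlapped in each set. Of the genes with a nonamer, 0 were called in young HSCs, 7 were called lower and 6 higher in middle-aged HSCs, and 4 lower and 11 higher in MPP3 cells. Over all genes above the limit, 26 were called lower and 300 higher in MPP3 cells. No test was made between these classes, which also differ in 3′ UTR length.

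**Figure D5:**
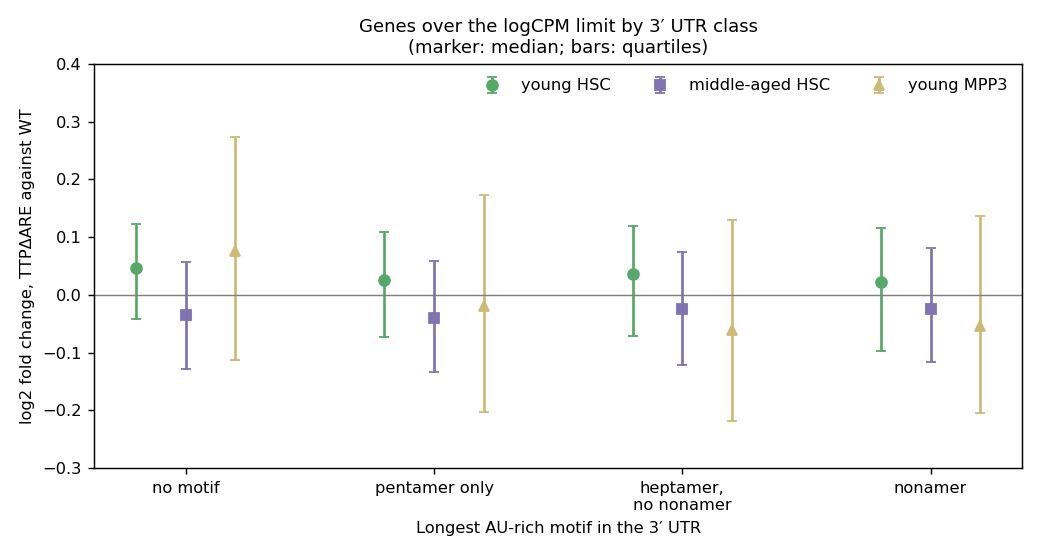
Median log2 fold change of TTPΔARE against WT for genes over the level limit, by the longest AU-rich motif in their 3′ UTR, with bars from the lower to the upper quartile. The medians lie between -0.06 and 0.08, and the nonamer class is not set apart from the classes without it in the HSCs.

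The levels of the targets were then compared with each other. Per kilobase of exon, *Myc* had 87.5 ± 12.7 CPM per kb in Y-WT HSCs (SD, n = 4), followed by *Ier3* with 38.0 ± 5.19, *Zfp36* with 13.7 ± 4.99, *E2f1* with 11.1 ± 1.05, *Lats2* with 3.19 ± 0.50, *Vegfa* with 2.55 ± 0.46 and *Plau* with 0.299 ± 0.080. Neighbours in this order did not overlap, other than *Zfp36* with *E2f1* and *Lats2* with *Vegfa*.
*Myc* was 1.70-fold higher in Y-WT MPP3 than in Y-WT HSCs (log2 fold change 0.76, SE 0.13, adjusted p = 0.0021), and with *E2f1* it made 2 of 5 targets called, all higher, where 24.7% of genes were called higher. The split of all called genes there depended on scaling, with 1755 of 5069 lower, and 2950 of 4998 with upper-quartile factors. *Ier3* (-0.37, SE 0.13, adjusted p = 0.0699), *Lats2* (-0.26, SE 0.15, adjusted p = 0.254), *Vegfa* (-0.09, SE 0.21, adjusted p = 0.770) and *Plau* (-2.34, SE 0.99, adjusted p = 0.121, under the level limit) did not pass. *Zfp36* had a log2 fold change of -0.75 (SE 0.28, adjusted p = 0.0783), which did not pass either. The value of *Zfp36* did pass in 7 of 8 other settings (adjusted p from 0.0105 with DESeq2 to 0.0442 with RLE factors) and without Y-WT HSC replicate 2 (0.0397). That of *Ier3* passed with DESeq2 (adjusted p = 0.0017), RLE factors (0.0139), upper-quartile factors (0.0031) and the replicate block (0.0347), and without Y-WT HSC replicate 3 (0.0378) or Y-WT MPP3 replicate 1 (0.0287). That of *Lats2* passed with upper-quartile factors (0.0408).
Between M-WT and Y-WT HSCs *E2f1* was the 1 of 5 targets called, and it was lower, as were 6.03% of genes (823 of 2691 called genes, and 1243 of 2346 with upper-quartile factors). *Plau* had a log2 fold change of -3.69 (SE 1.07, adjusted p = 0.0357) and no overlap, as did 5.01% of genes over the level limit in that direction. *Plau* itself was under that limit, and the share among genes as low was not counted. *Myc* (0.19), *Ier3* (0.21) and *Vegfa* (-0.29) did not pass, other than *Vegfa* with upper-quartile factors (adjusted p = 0.0357) and *Ier3* without Y-WT replicate 1 (0.0498), and the value of *Zfp36* was 0.07 (95% interval -0.37 to 0.52).
Ordered by mean CPM, *Myc* ran from Y-WT HSC (238 ± 34.5) over M-TTPΔARE HSC (269 ± 35.6), M-WT HSC (274 ± 32.8), Y-TTPΔARE HSC (371 ± 52.3) and Y-WT MPP3 (416 ± 34.7) to Y-TTPΔARE MPP3 (539 ± 75.7), and only the last of these steps had no overlap. For *Ier3* and *Vegfa* all neighbouring groups overlapped, *Ier3* between 33.7 CPM in Y-TTPΔARE MPP3 and 50.1 CPM in M-WT HSCs and *Vegfa* between 8.95 CPM in M-WT and 13.5 CPM in M-TTPΔARE HSCs. *Lats2* ran from 19.2 CPM in Y-WT MPP3 to 30.1 CPM in M-TTPΔARE HSCs, and only the last step, from M-WT to M-TTPΔARE, had no overlap.

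The genes whose level followed each target most closely were taken from 13589 genes over the limit, by Pearson's r of log2 CPM over all 24 libraries, which share cell type, age and library set. For *E2f1* they were *Fignl1* (r = 0.978), *Mcm5* (0.975) and *Cdc6* (0.975), the latter both needed to license replication origins. For *Myc* they were *Katna1* (0.930), *Pak1* (0.918) and *Cybc1* (0.914), for *Lats2* *Rapgef3* (0.893), *Igf2r* (0.891) and *Il1rapl2* (0.889), and for *Ier3* *Smim6* (0.889), *Snap47* (0.885) and *Pdlim1* (0.880). For *Vegfa* they included *Tnip1* (0.741) and *Trp53i11* (0.6997). For *Plau*, itself under the limit, they were *Nrcam* (0.834), *Ttn* (0.820) and *B230216N24Rik* (0.814).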

How the data were processed

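The deposited values are raw counts per gene from featureCounts, without normalization. By the methods of the paper, the authors aligned reads to mm10 (GENCODE M22 index) using STAR after adapter removal by Cutadapt through Trim Galore!. Strand and multimapping settings are not given in the sources used here, and the kit named in the labels differs from that in the paper.

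The 6 members and all gene lists were chosen with earlier results of these data known. Counts were fitted with edgeR 4.0.16 in R 4.3.3. Genes were kept by filterByExpr (minimum count 10, minimum total 15), scaled by TMM within each comparison, and tested with the quasi-likelihood F test on group means, with Benjamini-Hochberg adjustment over all genes tested. A call needed an average log2 CPM above 1.5, a fold above 1.2 (not for interactions) and an adjusted p below 0.05, and shares of called genes are over genes above the log2 CPM limit. The SE is the size of the log2 fold change divided by the square root of F, and the 95% interval uses the t quantile at edgeR's degrees of freedom. Levels in CPM use TMM factors over all 24 libraries, other than those of the receptor genes, which use library totals alone. CPM per kb uses exon lengths of GENCODE M21, another release than the authors used, from which 3′ UTRs were also read.

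The paper used 3 of the 4 Y-TTPΔARE MPP3 libraries without naming them, and all 4 are used here. Named were the 6 members, *Zfp36*, up to 3 called genes per list and comparison, and the 3 genes most alike to each member, of which 1 is not reported here. *Pola1*, *Ccne1* and *Plaur* were named after their values were seen. In the lists 2 symbols were changed to those of the tables and 1 duplicate was removed. DESeq2 1.42.0, edgeR's likelihood ratio test, RLE and upper-quartile factors, no filter, no limits, all 24 libraries, a replicate block and leaving out each library were the alternatives. Scaling and leave-out runs over the lists and their called genes were added after the data were seen. The tests were tested on simulated data.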

Additional observations from a re-analysis of the deposited data

Results flagged for a closer look

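The highest and lowest library of each group of 4 or 5 was compared with its nearest neighbour (Dixon's test at 95%) for *Zfp36* and the 6 targets, and 3 of 35 groups held a library set apart, while chance alone gives about 1 in 20. *E2f1* was at 61.7 CPM in Y-TTPΔARE MPP3 replicate 2, against 75.1 CPM in the nearest library. *Vegfa* was at 15.3 CPM in Y-WT MPP3 replicate 1, against 9.45 CPM. *Plau* was at 0.225 CPM in M-WT HSC replicate 4, against 0.0505 CPM, which is 8 counts against 2.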

How the results depend on the processing

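Of 857 values for *Zfp36* and the 6 targets under 33 other settings, 750 kept their direction and their side of the threshold. For the number of targets called, DESeq2 and the omission of the count filter each gave 1 in young HSCs (0 in the report) and 2 in middle-aged HSCs (1 in the report). The likelihood ratio test, all 24 libraries in 1 fit and the replicate block each gave 0 in middle-aged HSCs, and leaving out libraries gave 0 to 2. DESeq2 gave 1 in MPP3 cells and 1 for the age interaction. Between Y-WT MPP3 and Y-WT HSCs upper-quartile factors gave 4 (2 in the report), DESeq2, RLE factors and the replicate block each 3, and leaving out libraries 2 to 3. Between M-WT and Y-WT HSCs upper-quartile factors, no filter and no limits each gave 2 (1 in the report), and leaving out libraries 0 to 3. The cause was not tested.

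The same replicate numbers stand in different groups, and deviations of same-numbered libraries correlated by -0.15 to 0.21. Between Y-WT MPP3 and Y-WT HSCs these correlations lay between 0.03 and 0.19. Whether same-numbered libraries share more than a number is not given by the labels and was not tested. With the replicate block *Vegfa* in middle-aged HSCs was not called (adjusted p = 0.160) and all genes called there were 108 against 298, and 1580 against 2691 between M-WT and Y-WT HSCs.

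Values near zero changed sign. *Ier3* in young HSCs was 0.0335 without the filter and 0.00792 with all 24 libraries, *Myc* in middle-aged HSCs 0.00633 with the block, and *Zfp36* between M-WT and Y-WT HSCs -0.00411 with upper-quartile factors. With DESeq2, RLE factors, upper-quartile factors, all 24 libraries and the block, the age interaction of *Zfp36* was 0.0165, 0.016, 0.0728, 0.0226 and 0.0686, and that of *Lats2* was 0.0338, 0.0306, 0.092, 0.0312 and 0.00417. The cell type interaction of *Lats2* was 0.0267 with DESeq2, 0.0254 with RLE factors, 0.067 with upper-quartile factors, 0.00222 without the filter and 0.00927 with all 24 libraries, and that of *E2f1* was 0.00702 with upper-quartile factors. With libraries left out, signs changed within the ranges -0.068 to 0.12 (*Ier3*) and -0.14 to 0.0762 (*E2f1*) in young HSCs, -0.21 to 0.0165 (*Myc*) in middle-aged HSCs, -0.17 to 0.16 (*Vegfa*), -0.23 to 0.0254 (*E2f1*) and -0.0389 to 0.25 (*Lats2*) in MPP3 cells, -0.30 to 0.13 (*Vegfa*) between WT cell types, -0.0716 to 0.34 (*Zfp36*) between WT ages, -0.35 to 0.11 (*Zfp36*) and -0.15 to 0.0533 (*Lats2*) for the age interaction, and -0.21 to 0.0185 (*Ier3*), -0.18 to 0.0707 (*E2f1*) and -0.15 to 0.077 (*Lats2*) for the cell type interaction.

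The difference of mean *Zfp36* in young HSCs was 42.4 to 54.6 CPM with libraries left out, with an exact permutation p of 0.0571 without any 1 Y-TTPΔARE library and 0.0286 otherwise. All genes called were 6 in young HSCs against 304 with DESeq2, 146 with the likelihood ratio test, 73 without the filter, 18 with all 24 libraries and 0 to 12 with libraries left out. In middle-aged HSCs they were 298 against 823 with DESeq2, 842 without the filter, 53 with all 24 libraries and 68 to 299, and in MPP3 cells 326 against 766, 540 with the likelihood ratio test, 1244 with all 24 libraries and 185 to 347. Without limits 4453 genes were called between WT ages against 2691. For the age interaction they were 6 against 160 with DESeq2, 27 with the likelihood ratio test, 16 without the filter, 2 with all 24 libraries, 3 with the replicate block and 0 to 56, and for the cell type interaction 113 against 335, 202 with the likelihood ratio test, 261 with all 24 libraries and 66 to 132. Upper-quartile factors moved the median of all genes from 0.12 to -0.0569 between WT cell types, from -0.11 to 0.0116 for the age interaction and from -0.11 to 0.0208 for the cell type interaction. Depth bears most on *Plau*, with 0 to 29 counts a library.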
